A study of Homo sapiens with 3 samples.

Results

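HA-tagged TFE3 summits were examined over the 200 kb that hold HEXIM1 and HEXIM2 on chromosome 17, in band 17q21.31. The range ran from base 43150001 to base 43350000 of hg19. It was chosen by the summits themselves, because its central 100 kb, bases 43200001 to 43300000, were among the windows with the most summits found in both ChIP lists. The density of summits is therefore a property of the choice and is given only as a description. The range held 31 of the 62287 summits of replicate 1 and 36 of the 72647 summits of replicate 2. Summits were paired when each was the other's nearest in the opposite list and they lay at most 100 bp apart, and 29 pairs of the 47396 on all chromosomes used fell in the range. Over all chromosomes used, 76.1% of the summits of replicate 1 and 65.2% of those of replicate 2 had a partner.

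The cells were HK-2, an established line of human kidney proximal tubule epithelium, carrying an HA-TFE3 gene under doxycycline control. The series holds 2 replicate ChIP libraries taken with an antibody to the HA tag, and 1 library of input DNA from the same line, for which no summit list was analysed here. The labels describe culture for 24 h at 0.2 µg/ml doxycycline or without it, but do not say which libraries came from treated cells. No control for the precipitation was among the lists used, so its background was not measured. The TFE3 targeted by the antibody came from an introduced gene with an added tag, and nothing in the labels says that the libraries came from separate cultures. The spread between them may therefore be technical.

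TFE3 belongs to the MiT/TFE family of helix-loop-helix transcription factors, binds E-box sequences and is known for activating lysosomal and autophagy genes. HEXIM1 and HEXIM2 are paralogous proteins that inhibit P-TEFb, the kinase made of CDK9 and a cyclin T that releases paused RNA polymerase II into elongation. HEXIM1 does so when it is bound to the 7SK small nuclear RNA, in a particle that holds P-TEFb inactive. HEXIM1 took its name from its induction by hexamethylene bisacetamide, a compound that makes some cells differentiate. The genes lie on the plus strand, HEXIM2 downstream of HEXIM1. In RefSeq's order on GRCh38.p14 the nearest protein-coding genes before them are NMT1, PLCD3 and ACBD4, and those after them are FMNL1, SPATA32 and MAP3K14. No summit was assigned to a neighbour, because no gene positions on hg19 were at hand for those genes.

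The sequences before the annotated starts of both genes are shown because TFE3 is known to read the E-box CACGTG and its variant CATGTG. RefSeq's promoter table matched both genes and gave HEXIM1 1 start and HEXIM2 2 starts. Each run below is the 250 bases before a start, 5′ to 3′ on the plus strand of GRCh38.p14. They lie at chr17:45148225-45148474 for HEXIM1, and at chr17:45159924-45160173 and chr17:45161625-45161874 for HEXIM2. Capitals mark TATAAA and CCAAT on either strand (ATTGG is CCAAT on the opposite strand).
HEXIM1, before its start: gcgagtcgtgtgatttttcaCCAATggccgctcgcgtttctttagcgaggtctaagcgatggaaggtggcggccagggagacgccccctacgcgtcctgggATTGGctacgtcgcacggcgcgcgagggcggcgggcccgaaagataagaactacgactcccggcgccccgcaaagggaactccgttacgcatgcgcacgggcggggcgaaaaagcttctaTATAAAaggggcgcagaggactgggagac
HEXIM2, before its upstream start: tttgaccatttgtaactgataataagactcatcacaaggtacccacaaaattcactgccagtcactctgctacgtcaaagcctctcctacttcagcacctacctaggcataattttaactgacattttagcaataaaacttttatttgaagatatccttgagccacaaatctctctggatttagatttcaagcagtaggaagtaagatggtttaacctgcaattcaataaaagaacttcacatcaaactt
HEXIM2, before its downstream start: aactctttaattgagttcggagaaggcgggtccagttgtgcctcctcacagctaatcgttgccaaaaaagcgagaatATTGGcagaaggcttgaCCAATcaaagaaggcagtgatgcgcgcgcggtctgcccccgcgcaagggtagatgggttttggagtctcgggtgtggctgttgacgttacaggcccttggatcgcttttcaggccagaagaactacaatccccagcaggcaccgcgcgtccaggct

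Neither E-box form was present at any of the 3 HEXIM starts. The search covered both strands of the 250 bases before and 50 bases after each start. CACGTG is its own reverse complement and was found in 7.23% of the 34943 promoter windows of that length, and the longer TCACGTG, which contains it, in 3.69%. CATGTG, which reads CACATG on the opposite strand, was found in 11.1%, and the longer TCATGTG in 2.93%. HEXIM1 carried TATAAA with its first letter 29 bases before the start, a sequence that 11.6% of all windows held on either strand. CCAAT or its reverse complement was held by HEXIM1 and by the downstream start of HEXIM2, and by 34.6% of all windows. TATAAA and CCAAT were picked after the sequences had been seen. Over the 250 bases, 62.4% were G or C at HEXIM1, 55.2% at the downstream start of HEXIM2 and 36.0% at its upstream start, against a median of 58.0% over all windows. HEXIM1 held 31 CG dinucleotides there, and HEXIM2 held 16 at the downstream start and 1 at the upstream start, against a median of 11 over all windows. These windows are on another build than the summits, so they were not laid over them. Whether a window holds a summit was therefore not determined, and no sequence was picked by summit position.

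At HEXIM1 the summits formed a compact group, with a higher-scoring summit flanked by lower-scoring ones. HEXIM1 was taken at bases 43224684 to 43229468, a span of 4785 bp. Within 1 kb of that span each list held 5 summits, and all 5 were paired. Scores are the authors' own value of each summit. They are given with their percentile, the rank of the score within its own list, where 100 is the highest. The leading summit lay inside the span taken for HEXIM1, at base 43225733 in replicate 1. That is 1049 bp after the start used here, with a score of 18.5 and a percentile of 81.7. In replicate 2 it lay at base 43225655, 971 bp after the start, with a score of 32.5 and a percentile of 94.3. It was the highest of the 5 in both lists.

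The other summits of HEXIM1 were lower in both lists. A summit before the gene lay 424 bp upstream of the start in replicate 1 (base 43224260) and 372 bp upstream in replicate 2 (base 43224312). Its scores were 5.92 and 7.93, at percentiles of 30.0 and 44.2. The next lay 505 bp after the start in replicate 1 (base 43225189) and 438 bp after it in replicate 2 (base 43225122). It scored 4.82 and 5.82, at percentiles of 17.5 and 31.6. Neither of these reached the median of its list. Past the leading summit, base 43226675 of replicate 1 scored 3.87 (percentile 10.5) and base 43226721 of replicate 2 scored 9.20 (percentile 52.3). The last lay just past the end of the gene, by 38 bp in replicate 1 (base 43229506) and by 62 bp in replicate 2 (base 43229530). It scored 1.99 in replicate 1, at percentile 0.511 and so among the lowest of that list, and 8.21 in replicate 2, at percentile 46.7.

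The 5 summits spanned 5246 bp in replicate 1 and 5218 bp in replicate 2. The gaps between them, in gene order, were 929, 544, 942 and 2831 bp in replicate 1 and 810, 533, 1066 and 2809 bp in replicate 2. Neighbouring summits of the whole lists were spaced by medians of 13098 bp and 11303 bp. Each of the 5 had 3 or 4 others within 5 kb in both lists, whereas 8.70% of all summits of replicate 1 and 10.5% of all summits of replicate 2 had 3 or more. The range was chosen by density, so nothing is read from that contrast. The nearest summit before the group was 11454 bp away in replicate 1 and 11462 bp away in replicate 2, and the nearest after it was 9665 bp and 8790 bp away. Of these flanking gaps only that of 11462 bp exceeded the median spacing of its whole list, 11303 bp. The group was therefore not set apart by unusually wide gaps.

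**Figure D1:**
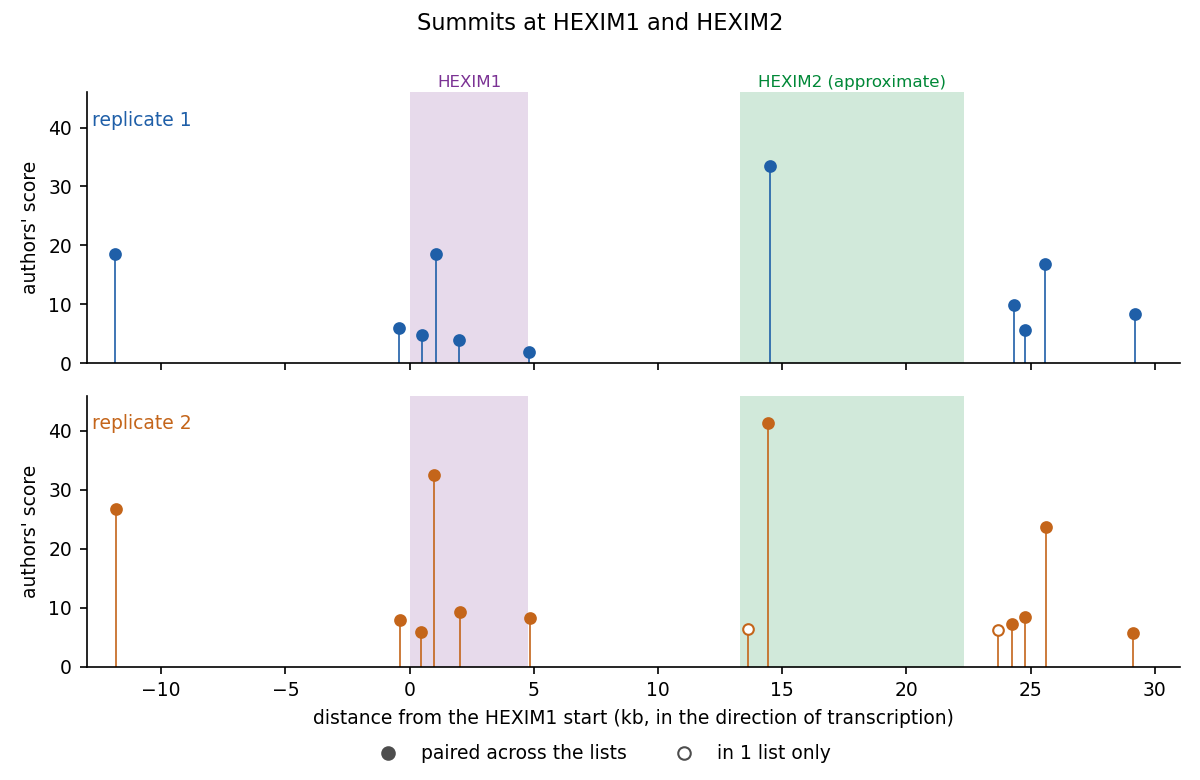
Authors' score of each summit against its distance from the HEXIM1 start (kb), one panel per ChIP library. Shading marks HEXIM1 and the approximate span of HEXIM2, filled points are paired across the lists and open points are in 1 list only. The leading HEXIM1 summit scores 18.5 and 32.5, and the HEXIM2 summit scores 33.5 and 41.3.

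The distances above depend on which start of HEXIM1 is used. The RefSeq entry of HEXIM1 on GRCh38.p14 is 3625 bp long, 1160 bp shorter than the hg19 span taken here. At which end the difference lies was not determined, because positions of the builds were not mixed. If the whole difference lay at the upstream end, the start would fall past the leading summit, which is 971 to 1049 bp after the start used here. The leading summit would then lie before the gene and not inside it, so its place relative to the gene is not settled here.

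HEXIM2 held fewer summits than HEXIM1, with a single high-scoring summit near the beginning of the span taken for it. The position of HEXIM2 is known here only approximately, as bases 43238000 to 43247000. Its 2 RefSeq starts were not placed on hg19, so the distance of the summit from either of them is not given. The paired summit lay at base 43239171 in replicate 1, with a score of 33.5, a percentile of 95.6 and rank 2748. In replicate 2 it lay at base 43239125, with a score of 41.3, a percentile of 97.3 and rank 1905. This placed it 1171 and 1125 bp after the approximate start. It was the highest-scoring summit of the whole range in replicate 2 and the second in replicate 1. Replicate 2 had 1 more summit in this span, at base 43238320, with a score of 6.41 (percentile 34.5). It lay 320 bp after the approximate start, the nearest to it of either list, and had no partner in replicate 1. No other summit lay within the approximate span in either list.

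Just past the approximate end of HEXIM2 the summits were close together again. Bases 43248997, 43249457 and 43250269 of replicate 1 scored 9.96, 5.65 and 16.8. Their partners in replicate 2, at bases 43248931, 43249472 and 43250297, scored 7.32, 8.38 and 23.7. The third of them was the highest in both lists, at percentiles of 78.4 and 87.6. Replicate 2 also listed base 43248376, with a score of 6.29 and no partner.

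The highest scores of the range were not all at the genes. The pair with the highest mean percentile lay 46120 bp downstream of the HEXIM1 start in replicate 1. It was at base 43270804 in replicate 1, with a score of 50.6, a percentile of 99.2 and rank 474. In replicate 2 it was at base 43270782, with a score of 37.3, a percentile of 96.2 and rank 2733. The HEXIM2 pair was the second and the leading HEXIM1 pair was the fifth. The third, close to the downstream edge of the range at bases 43343432 and 43343367, scored 25.4 in replicate 1 and 27.9 in replicate 2 (percentiles 90.6 and 91.3).

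The fourth pair lay 54224 bp upstream of the HEXIM1 start in replicate 1. At bases 43170460 and 43170472 it scored 22.6 and 28.6 (percentiles 87.8 and 91.8). The sixth and seventh lay on either side of the genes. Bases 43275370 and 43275382, downstream, scored 20.0 and 24.8 (percentiles 84.4 and 88.7), and bases 43212806 and 43212850, upstream, scored 18.6 and 26.7 (percentiles 82.1 and 90.4). The eighth was the pair past HEXIM2 already given.

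Below these 8 pairs there was a step in the scores. The ninth pair, at bases 43189404 and 43189397, had percentiles of 59.8 and 74.2, and the tenth, at bases 43306555 and 43306479, had 54.0 and 77.1. The first 8 pairs, and no others of the range, lay above percentile 75 in both lists. Of the 10 highest pairs of the range in replicate 1, 9 were also among the 10 highest in replicate 2.

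**Figure D2:**
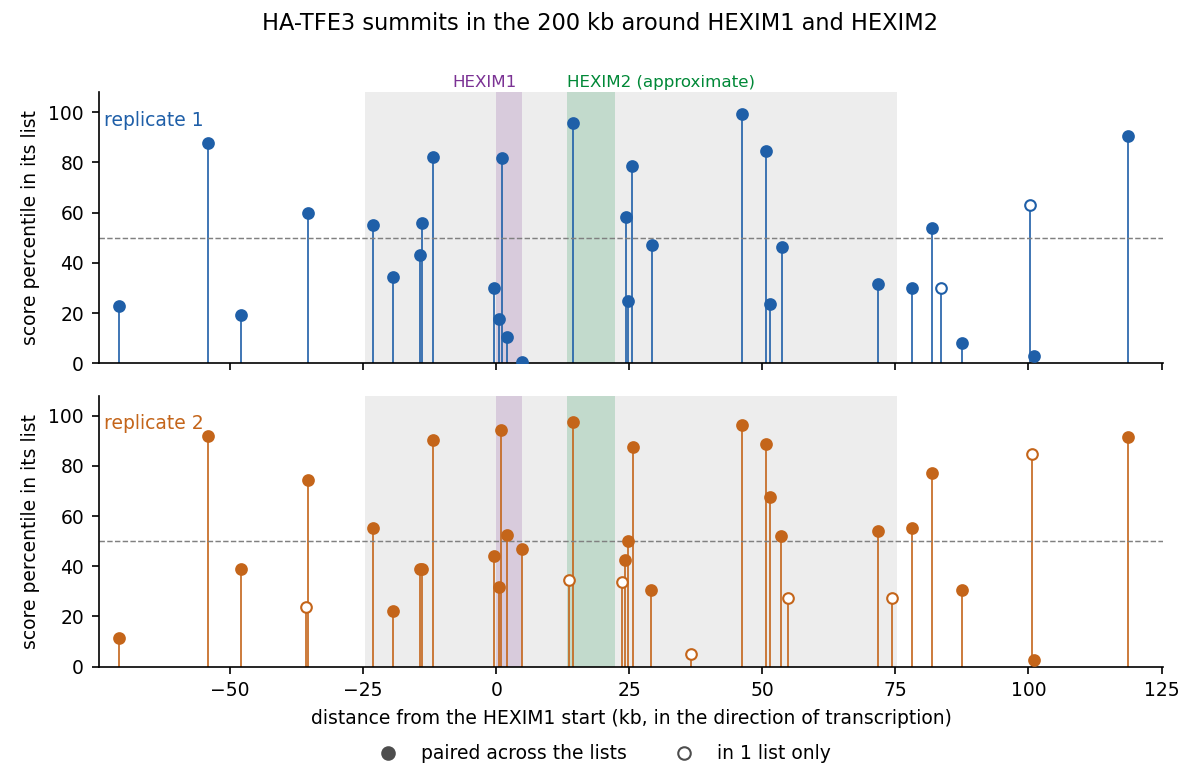
Score percentile of each summit in its own list against its distance from the HEXIM1 start (kb), one panel per ChIP library. Grey marks the dense 100 kb window, purple HEXIM1 and green the approximate HEXIM2 span, and the dashed line is percentile 50. The 5 summits at HEXIM1 include 1 above percentile 80 in each list, and replicate 2 has 7 unpaired summits (open), against 2 in replicate 1.

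Over the range as a whole, summits were closely spaced but scored near the middle of their lists. The median percentile was 46.2 over the 31 summits of replicate 1 and 48.4 over the 36 of replicate 2. The scores ran between 1.99 and 50.6 in replicate 1, with a median of 8.14, and between 2.58 and 41.3 in replicate 2, with a median of 8.30. The medians of the whole lists were 8.55 and 8.38. Above percentile 90 were 3 summits of the range in replicate 1 and 6 in replicate 2. These made up 9.68% and 16.7% of the summits of the range, beside 9.94% and 9.99% of the whole lists. The count of 6 was the larger share, but it was not tested, since the lists that gave the scores also chose the range.

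Paired summits of the range had lower median percentiles than all pairs. The median percentile of the 29 pairs was 46.2 in replicate 1 and 52.3 in replicate 2, against 59.1 and 64.3 over all pairs. Of the 29 pairs, 11 lay above percentile 50 in both lists and 11 lay below it in both. In 21 pairs (72.4%) the percentile was higher in replicate 2, beside 57.2% of all pairs. The 5 pairs at HEXIM1 and the HEXIM2 pair were all among the 21. The widest gap within the range was at the pair just past the end of HEXIM1. Scores are not compared between lists of unequal length, so this difference in rank is no measure of a difference in binding. Across the 29 pairs Spearman's rank correlation of the scores was 0.750, beside 0.729 across all pairs. Summits of a locus share their libraries and chromatin, so no p-value is given.

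**Figure D3:**
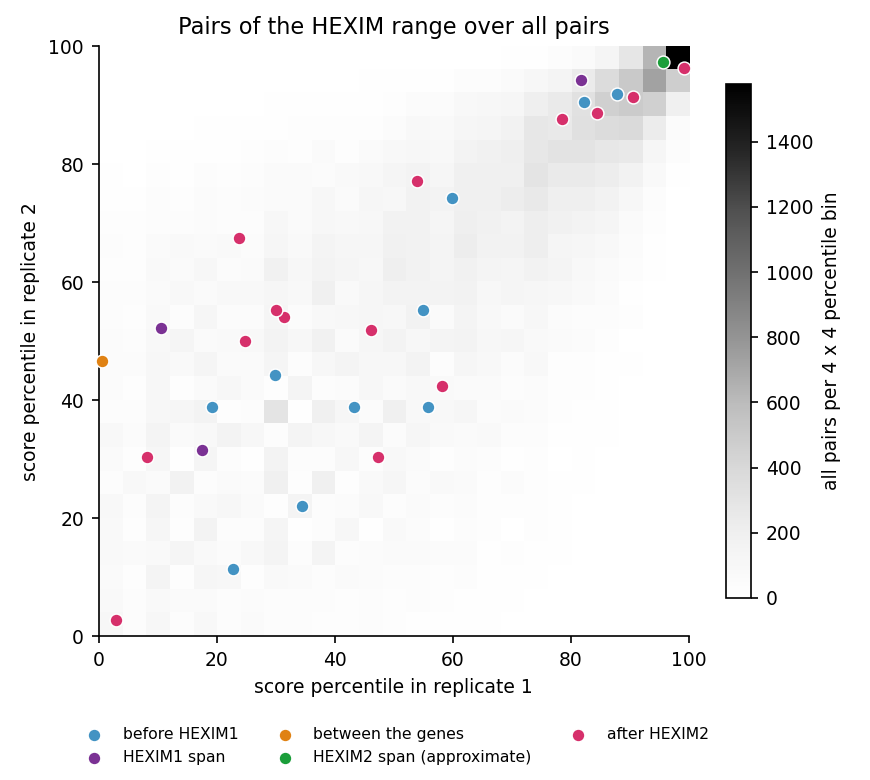
Score percentile in replicate 1 (x axis) against replicate 2 (y axis) for the 29 pairs of the range, coloured by position relative to the genes, over a grey count of all 47396 pairs. In 8 pairs both percentiles exceed 75, and the orange point at the left edge is the pair just past the end of HEXIM1, at 0.511 and 46.7.

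Most summits of the range were found in both lists. Of the summits of replicate 1, 29 of 31 had a partner, or 93.5% (95% exact binomial interval 78.6 to 99.2), beside 76.1% of the whole list. Of those of replicate 2, 29 of 36 did, or 80.6% (64.0 to 91.8), beside 65.2% of the whole list. In the central 100 kb all 20 summits of replicate 1 were paired, and 20 of the 25 of replicate 2. The central window was chosen on its number of pairs, so these shares are no test of agreement between the libraries.

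Paired summits lay between 2 and 81 bp apart, with a median of 39 bp, against 26 bp over all pairs. The median of the range was 22 bp over the 5 pairs left when each list was limited to its 10000 highest scores, and 23 bp with a limit of 50 bp. The median over all pairs was not computed under these restrictions, so these values are not to be set against 26 bp. Of the 29 pairs, 19 (65.5%) lay within 50 bp of each other, beside 79.3% of all pairs. The summit of replicate 2 was upstream of its partner in 14 pairs and downstream in 15. At HEXIM1 the partners were 52, 67, 78, 46 and 24 bp apart in gene order, and at HEXIM2 they were 46 bp apart. A limit of 50 bp therefore left 2 of the 5 HEXIM1 pairs, without the leading one, and kept the HEXIM2 pair.

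The summits without a partner were few and mostly low. In replicate 1 they were bases 43308322 and 43324908, with scores of 5.94 and 11.3 (percentiles 30.1 and 62.9). The 7 of replicate 2 had percentiles between 5.15 and 84.7, with a median of 27.4. The highest of them, base 43325276 with a score of 21.2, lay 368 bp from base 43324908 of replicate 1, and the limit of 500 bp joined them as 1 more pair. The other 6 had percentiles of at most 34.5. Over the whole lists, unpaired summits had median percentiles of 24.8 in replicate 1 and 27.4 in replicate 2. Low percentiles of unpaired summits are therefore no trait of this range.

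Just inside the upstream edge were bases 43153813 (replicate 1, score 5.34) and 43153816 (replicate 2, score 4.02), and just outside it bases 43140255 (7.01) and 43138984 (6.95). Just inside the downstream edge was the pair at bases 43343432 and 43343367, given above, and just outside it bases 43354788 (8.55) and 43354760 (12.6). By position relative to the genes, the 74683 bp before HEXIM1 held 10 pairs and the 103000 bp after the approximate end of HEXIM2 held 14. The HEXIM1 span held 3 pairs, the approximate HEXIM2 span 1, and the 8531 bp between the genes 1.

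The 100 kb window around the HEXIM genes was set beside the other 4 windows with the most pairs. It held 20 pairs, as did bases 30600001 to 30700000 of chromosome 22 in 22q12.2. The windows in 20p13, 10q22.1 and 17q25.3 held 25, 23 and 23. The median percentile of all summits in the HEXIM window was 46.8 in replicate 1 and 46.7 in replicate 2. In the other windows it was 61.3 and 66.0 in 20p13, 66.1 and 67.6 in 10q22.1, 55.4 and 61.1 in 17q25.3, and 59.8 and 66.0 in 22q12.2. The HEXIM window thus had the lowest median of the 5 in both lists. Its summits above percentile 90 numbered 2 in replicate 1 and 4 in replicate 2, against 4 to 6 and 5 to 8 in the other windows. Among the 53 windows with at least 15 pairs, 7 had a lower median percentile than the HEXIM window in replicate 1, and 7 in replicate 2. The medians of the 53 ran from 35.7 to 83.3 in replicate 1 and from 30.3 to 78.7 in replicate 2. None of these differences was tested.

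**Figure D4:**
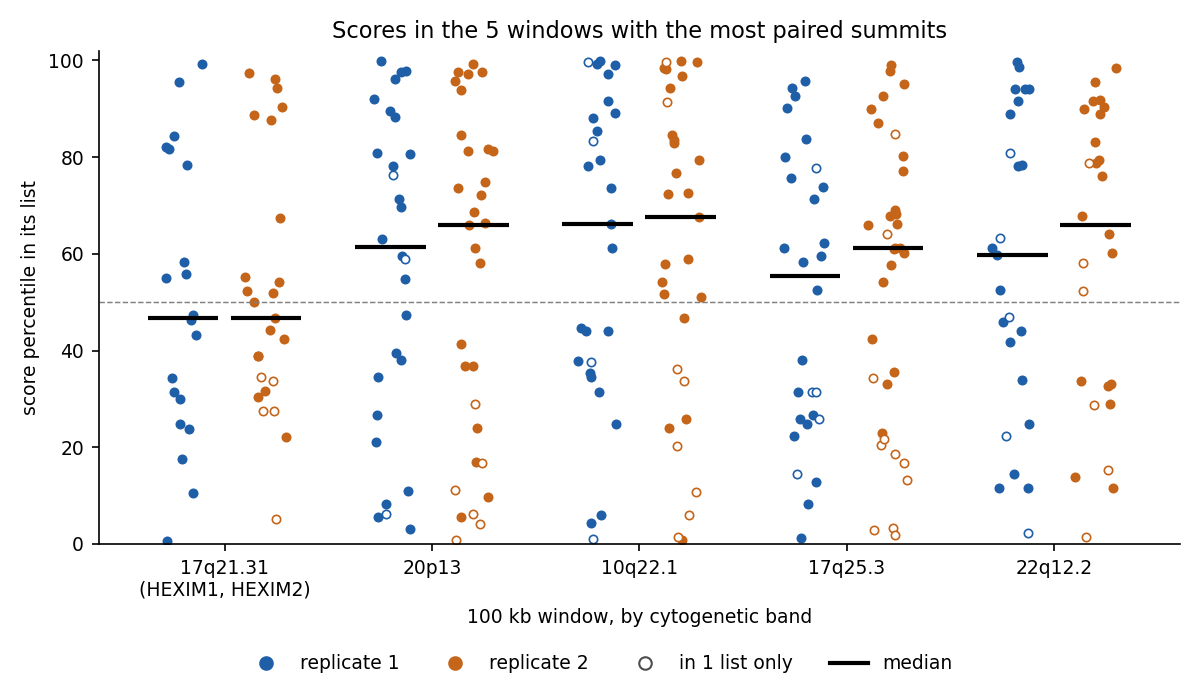
Score percentile of every summit in the 5 windows of 100 kb with the most pairs, by cytogenetic band and ChIP library. Bars are medians, open points are summits in 1 list only and the dashed line is percentile 50. The HEXIM window, at the left, has medians of 46.8 and 46.7 and no open point in replicate 1.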

How the data were processed

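Chromatin of HK-2 HA-TFE3-inducible cells was digested enzymatically and precipitated through the HA tag, per the labels. For each ChIP library the authors deposited single-base summits, with a score per summit, on the build hg19 (per the submitters' processing notes). The scale of the deposited score, the aligner, the peak caller and its threshold, and the use of the input, are not given in the sources at hand. Depth is unknown. Scores took 1995 and 2095 distinct values, and percentiles give ties their average rank.

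Positions were made 1-based, and summits on chromosomes 1 to 22 and X were kept (35 and 45 left out). The gene spans came with the choice of the range, not from an annotation. Pairing was checked on simulated lists of randomly scattered summits, with true partners placed inside the limit. That check does not cover summits as closely spaced as those of this range. Binomial intervals are exact (Clopper-Pearson, 95%), cover counting error only and treat summits as independent. No test was run, since the lists chose the range and no other condition has a list. The members and lists were chosen with earlier results of these data known. Named were the 10 pairs of highest mean percentile, the summits at HEXIM1 and nearest the gene starts, and those at the edges. Unpaired summits, those past HEXIM2, the 53 windows, the spacing within 5 kb, TATAAA and CCAAT were added after seeing the data. Other genes of the 7SK particle and P-TEFb were planned but not analysed here, without hg19 gene positions. Bands came from circlize's hg19 table. Python 3.11.15, NumPy 2.4.6, pandas 2.3.3, SciPy 1.17.1 and matplotlib 3.10.9 were used.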

Additional observations from a re-analysis of the deposited data

How the results depend on the processing

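A limit of 50 bp left 19 pairs in the range and a mean share of paired summits over the lists of 57.0%, against 29 pairs and 87.1%. Limits of 200 and 500 bp gave 29 and 30 pairs, and taking any summit of the other list within 100 bp gave 29. With only summits scoring above their list's median, the range held 15.5 summits per list on average in place of 33.5, with 11 pairs, a mean share paired of 71.6% and a median percentile of 82.4. With only the 10000 highest-scoring summits of each list and their ties, it held 6.5 summits per list, 5 pairs and a median percentile of 91.1. These percentiles rise by construction, since low scores are left out. Within 1 kb of the HEXIM1 start lay 2.5 summits per list, against 0.5 under both score thresholds and 5 within 5 kb and within 10 kb. The leading HEXIM1 summit lay 971 bp after the start in replicate 2, inside this stretch, and 1049 bp after it in replicate 1, just outside. It scored above the median in both lists, so the 0.5 among summits above the median reflects that edge. Leaving out a replicate gave 31 to 36 summits, a median percentile of 46.2 to 48.4 and 2 to 3 summits within 1 kb of the HEXIM1 start. The median distance within pairs, 39 bp, was 23 bp at the limit of 50 bp. It was 28 bp among summits scoring above their list's median and 22 bp among the 10000 highest-scoring summits. These shifts were smaller than the spread over single pairs (SD 25.4 bp). That spread is not the uncertainty of a median, so the median is not called stable on it. The limit of 50 bp lowers the median by construction, since longer distances are left out. The other alternatives, including the central 100 kb, stayed within 1.5 times for counts and within the spread between lists or pairs for other values. No paired analysis was possible because no test compares groups and no summit list of the input was used here. Pairs cannot be counted from 1 library alone. Unknown depth and tied scores limit how finely summits can be ranked.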
